A study of Mus musculus with 8 samples.

Results

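The astrocyte genes described here are 10 transcripts widely used as markers of astrocytes, chosen by gene symbol. They are Gfap, Aqp4, Slc1a2, Slc1a3, Glul, Aldoc, S100b, Gja1, Apoe and Clu. Of them, 7 had a probe annotated to exactly 1 gene, each with 1 such probe, among 13840 genes named in this way on the array. Gfap, Aqp4 and S100b had no such probe and were not analysed here, so the intermediate filament gene of reactive astrocytes could not be set against the transporter and metabolic genes. RNA was measured in the hypothalamus of inbred C57BL/6J males that gained much weight (high gainers) or little weight (low gainers). Both groups were fed a high-fat diet (D12331) for 6 weeks, were then switched to low-fat food for 2 weeks, and returned to D12331 for another 6 weeks. Each group was 1 RNA pool of 20 mice, measured on 4 arrays. These are technical replicates, so every p-value below measures the spread between arrays of 2 pools and not the spread between mice.

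Astrocytes take up the glutamate that neurons release, convert it to glutamine and hand the glutamine back to neurons. They are coupled to each other by gap junctions, store glycogen and run glycolysis, and secrete the lipoprotein particles that carry cholesterol within the brain. In the hypothalamus, astrocytes and their relatives, the tanycytes, border the neurons that control feeding. On injury or inflammation astrocytes become reactive, a state for which Gfap and Vim, both intermediate filaments, are the usual markers.

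The region before the transcription start is shown for 3 of the measured genes that stand for glutamine synthesis (Glul), glutamate uptake (Slc1a3) and gap junctions (Gja1) (sequences from RefSeq, build GRCm38.p6). Capitals mark matches on either strand to the STAT motif (TTCNNNGAA), a part of the NFI motif (TTGGC) or the SOX motif (AACAAT). These factors are known from astrocyte development. Each sequence is 250 bases long, is read on the strand of the gene and ends at the base before the start.
Glul, chr1:153899679-153899928, plus strand: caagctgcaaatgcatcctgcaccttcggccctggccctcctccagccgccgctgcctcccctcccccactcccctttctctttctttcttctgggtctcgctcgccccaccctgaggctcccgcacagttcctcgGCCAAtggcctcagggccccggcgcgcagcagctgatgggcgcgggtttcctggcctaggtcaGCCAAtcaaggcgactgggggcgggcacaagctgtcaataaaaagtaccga
Slc1a3, chr15:8710808-8711057, minus strand: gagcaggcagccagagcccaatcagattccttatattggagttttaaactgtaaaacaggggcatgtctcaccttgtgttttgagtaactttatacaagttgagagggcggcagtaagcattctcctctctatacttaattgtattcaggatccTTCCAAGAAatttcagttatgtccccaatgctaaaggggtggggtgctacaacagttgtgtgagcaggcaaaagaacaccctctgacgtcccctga
Gja1, chr10:56377050-56377299, plus strand: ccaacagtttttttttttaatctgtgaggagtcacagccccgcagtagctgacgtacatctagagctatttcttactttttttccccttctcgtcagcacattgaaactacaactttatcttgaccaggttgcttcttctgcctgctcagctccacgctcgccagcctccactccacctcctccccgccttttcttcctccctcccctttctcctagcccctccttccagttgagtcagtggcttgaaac
The Glul region held 2 matches to TTGGC, only a part of the NFI motif, the first of them 114 bases before the start. Both were on the opposite strand, so the gene strand reads GCCAA there. TTGGC was found in 41.5% of 32851 such regions in the RefSeq table. The Slc1a3 region held 1 STAT motif, 96 bases before the start, found in 7.02% of regions. The Gja1 region held none of the 3 motifs, and the SOX motif, found in 9.42% of regions, was in none of the 3 sequences. A match is a string of letters and not a measured binding site, and no match overlapped another in these sequences.

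Values are linear normalized intensities in arbitrary units, with many cells left empty in the deposited table. Between 13657 and 16873 of 33012 probes had a value on a given array. Across probes with a value on all arrays, the r of low gainer array 2 with the remaining 7 lay between 0.227 and 0.241, while those 7 gave an r from 0.949 to 0.990 among themselves. Genes are not independent replicates, and these values describe the arrays only. Low gainer array 2 is therefore shown apart, and pools were compared on the 4 high gainer arrays and low gainer arrays 1, 3 and 4. Of 10 hypothalamic peptide genes looked up as a check of the tissue, 8 had a probe annotated to exactly 1 gene. All 8 had a value on each of these 7 arrays, from the 52.9th to the 99.5th percentile. In bulk RNA, fewer cells of a type and less RNA per cell cannot be told apart.

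None of the astrocyte genes was called different between the pools. Of 6 astrocyte genes with a value on all 7 arrays, 3 were above 0 (Aldoc, Gja1 and Apoe) and 3 below 0 (Slc1a2, Glul and Clu) in high minus low gainers, and 0 passed an adjusted p of 0.05 by limma. The log2 difference of Clu was only -1.9e-05. At an unadjusted p under 0.05, 0 of the 6 passed by limma, beside 6.48% of all probes. Over all 11169 probes tested, limma called 3, or 0.0269%, all higher in high gainers, and these were the pituitary hormone transcripts Gh, Cga and Prl. A second rule takes the thresholds of the study's methods, 1.5-fold at an unadjusted p of 0.01, with the p from limma. It took 0 of the 6 genes and 1.03% of all probes (0.457% higher and 0.573% lower in high gainers). With the p of the methods' t-test in its place, 0 of the 6 genes and 19 probes, or 0.17%, were taken. The arrays of the pools overlapped for each of the 6 genes, and were separate for 4.77% of all probes (2.07% higher and 2.7% lower in high gainers). The median log2 difference of the 6 genes was 0.12, beside -0.0024 over all probes. With low gainer array 2 included, 0 of 4 genes with a value on all 8 arrays were called by limma, and 0.0186% of probes were.

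Glul and Aldoc, the enzyme genes among the 7, were both bright. Glul encodes glutamine synthetase, which in brain turns glutamate and ammonia into glutamine almost wholly within astrocytes. Its intensity was 133.9, 141.1, 153.5 and 161.8 in high gainers (arrays 1 to 4), against 145.0, 217.0 and 132.1 in low gainers (arrays 1, 3 and 4). All 4 high gainer values lay within the range of the low gainer arrays, and low gainer array 3 stood highest. The mean was 147.6 ± 12.5 (SD, n = 4) in high gainers and 164.7 ± 45.8 (SD, n = 3) in low gainers. The log2 difference was -0.15 with a 95% interval from -0.47 to 0.18, or a high-to-low fold of 0.903 (adjusted p = 0.902 by limma). Without low gainer array 3 it was -0.01.

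Aldoc encodes aldolase C, the brain form of a glycolytic enzyme that is enriched in astrocytes. Its intensity was 47.5, 48.9, 41.5 and 52.1 in high gainers (arrays 1 to 4), against 44.0, 47.8 and 34.9 in low gainers (arrays 1, 3 and 4). High gainer arrays 1 and 3 lay within the low gainer range, and low gainer array 4 was below all others. The mean was 47.5 ± 4.47 (SD, n = 4) in high gainers and 42.2 ± 6.66 (SD, n = 3) in low gainers. The log2 difference was 0.25 with an interval from -0.07 to 0.56, a high-to-low fold of 1.19 with an interval from 0.953 to 1.47 (adjusted p = 0.799 by limma). The interval of Aldoc was among the narrowest of the 6 genes.

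**Figure D1:**
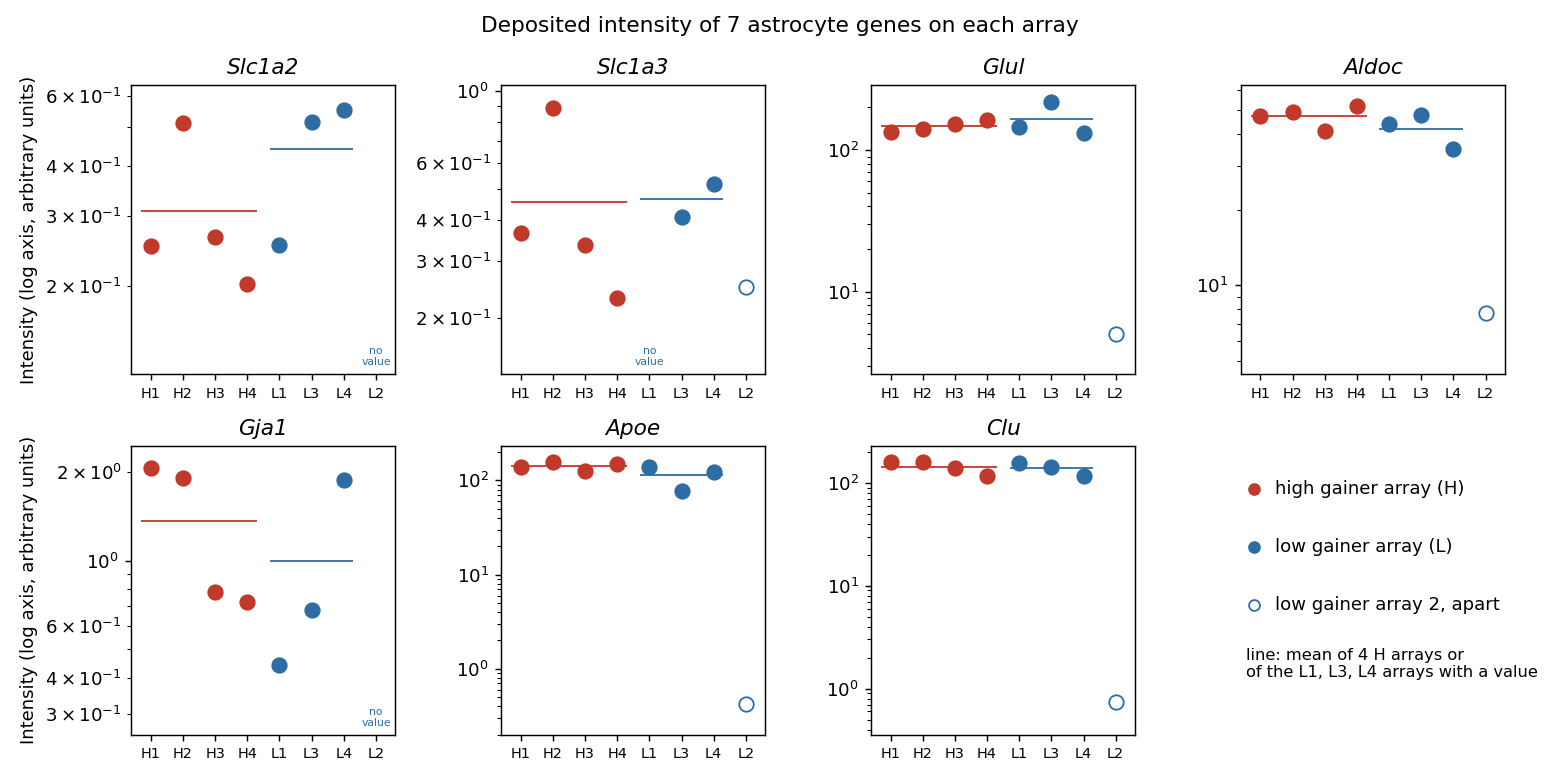
Deposited intensity on a log axis of the 7 measured astrocyte genes on each array, high gainers red and low gainers blue, with low gainer array 2 as an open circle on the right and lines at the means. Glul, Aldoc, Apoe and Clu stay within a narrow range on 7 arrays and drop on low gainer array 2, while Slc1a2, Slc1a3 and Gja1 spread within each pool.

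The probes of the glutamate transporter genes Slc1a2 and Slc1a3 were dim on these arrays. The 10th percentile of all deposited intensities was 0.186. Levels of different probes cannot be set against each other on arrays, so a dim probe does not show that a transcript was scarce. Slc1a2 encodes GLT-1, the transporter that clears most glutamate in the forebrain. Its probe read 0.252, 0.512, 0.265 and 0.202 in high gainers (arrays 1 to 4), against 0.253, 0.515 and 0.552 in low gainers (arrays 1, 3 and 4). High gainer array 2 and low gainer arrays 3 and 4 were high and the other 4 arrays low, so both pools held both levels. The mean was 0.308 ± 0.139 (SD, n = 4) in high gainers and 0.440 ± 0.163 (SD, n = 3) in low gainers. The log2 difference was -0.61 with an interval from -1.38 to 0.16, a high-to-low fold of 0.655 (adjusted p = 0.793 by limma). Without low gainer array 1 it was -0.98, with an interval from -1.73 to -0.23 (adjusted p = 0.170 by limma), and without low gainer array 3 it was -0.40.

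Slc1a3 encodes GLAST, the other glial glutamate transporter. It read 0.366, 0.886, 0.336 and 0.231 on high gainer arrays 1 to 4, and 0.410 and 0.518 on low gainer arrays 3 and 4, with no value on low gainer array 1. High gainer array 2 was again the highest of its pool, and both low gainer values lay inside the high gainer range. In a fit that allowed missing values and so left out low gainer array 1 for this gene, the log2 difference was -0.20 with an interval from -1.18 to 0.78 (adjusted p = 0.974 by limma, of 13335 probes with 0.0225% called). The interval for GLAST rests on 2 low gainer values. Of the other transporters of the family, Slc1a1, the neuronal EAAC1, averaged 2.03 ± 0.530 (SD, n = 4) in high gainers and 2.45 ± 0.413 (SD, n = 3) in low gainers, and the log2 interval ran from -0.79 to 0.20. Slc1a4 had a value on 2 high and 0 low gainer arrays, Slc1a5 on 0 and 1, and Slc1a6 on 0 and 0.

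Gja1 encodes connexin 43, the main gap junction protein of astrocytes. Its intensity was 2.07, 1.91, 0.780 and 0.722 in high gainers (arrays 1 to 4), against 0.441, 0.681 and 1.88 in low gainers (arrays 1, 3 and 4). High gainer arrays 1 and 2 and low gainer array 4 stood well above the rest, a split that ran through both pools although the arrays of a pool carried the same RNA. The mean was 1.37 ± 0.719 (SD, n = 4) in high gainers and 1.000 ± 0.769 (SD, n = 3) in low gainers. The log2 difference was 0.54 with an interval from -0.41 to 1.49, a high-to-low fold of 1.46 (adjusted p = 0.861 by limma). It was 0.08 without low gainer array 1 and 1.07 without low gainer array 4. The residual SD of Gja1 within pools was 0.88 on the log2 scale, against a median of 0.28 for the 3723 probes of middle brightness, and 99.8% of those probes had a residual SD no larger. Gjb6, which encodes the other main astrocyte connexin, connexin 30, did not share the split. It lay between 8.38 and 10.6 in high gainers, against 8.82 to 12.1 in low gainers, and the log2 interval ran from -0.49 to 0.24. The split was not particular to Gja1. Slc17a6, a vesicular glutamate transporter gene, read 6.32, 4.16, 2.72 and 2.42 in high gainers (arrays 1 to 4). It read 2.96, 1.47 and 6.42 in low gainers (arrays 1, 3 and 4). Over the glutamate and glutamine cycle genes tested, the median log2 deviation was 0.14 and 0.20 on high gainer arrays 1 and 2. It was 0.50 on low gainer array 4 and below 0 on the other arrays.

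Apoe and Clu, which encode the lipoprotein components apolipoprotein E and clusterin, were bright. Apoe read 139.3, 158.0, 125.4 and 148.8 in high gainers (arrays 1 to 4), against 137.3, 77.6 and 123.7 in low gainers (arrays 1, 3 and 4). Low gainer array 3 was far below the other 6 arrays, and low gainer array 1 lay within the high gainer range. The mean was 142.9 ± 13.9 (SD, n = 4) in high gainers and 112.9 ± 31.3 (SD, n = 3) in low gainers. The log2 difference was 0.36 with an interval from -0.11 to 0.83, a high-to-low fold of 1.28 (adjusted p = 0.809 by limma). Without low gainer array 3 it was 0.02. Its residual SD of 0.39 compared with a median of 0.23 for the 3723 brightest probes.

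Clu gave the closest match between pools. It read 159.0, 159.5, 137.7 and 117.0 in high gainers (arrays 1 to 4), against 157.1, 142.1 and 117.1 in low gainers (arrays 1, 3 and 4). The pools covered nearly the same range, and array 4 was the lowest of each pool. The mean was 143.3 ± 20.3 (SD, n = 4) in high gainers and 138.8 ± 20.2 (SD, n = 3) in low gainers. The high-to-low fold was 1.00 with an interval from 0.790 to 1.27 (adjusted p = 1.00 by limma). The residual SD of Clu was 0.20, below the 0.23 of the 3723 brightest probes.

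**Figure D2:**
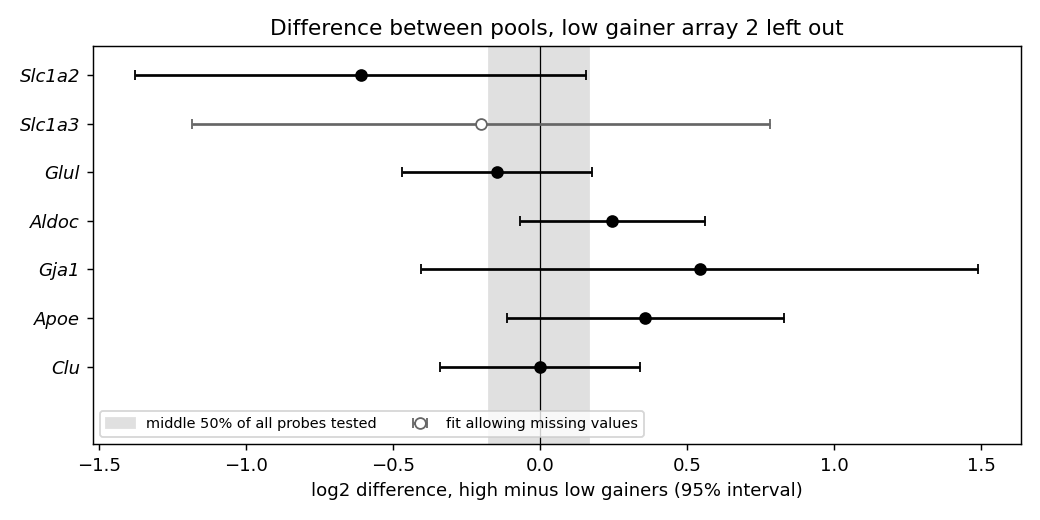
Log2 difference, high minus low gainer pool, with its 95% interval for each measured astrocyte gene, and, shaded, the middle 50% of all probes tested, from -0.17 to 0.17. Every interval includes 0, and the interval is narrow for Glul, Aldoc and Clu and wide for Slc1a2, Slc1a3 and Gja1.

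Precision followed brightness over all probes, and the bright astrocyte genes were measured more closely than the dim ones. With probes cut by brightness into 3 sets of 3723, the 95% interval reached a median of 0.60 to either side in the dimmest set, 0.47 in the middle set and 0.39 in the brightest set, on the log2 scale. Slc1a2 was in the dimmest set, with a residual SD of 0.58 against a median of 0.36. Gja1, in the middle set, had a larger residual SD of 0.88. Glul and Aldoc had residual SDs of 0.17 and 0.14, but that of Apoe, 0.39, was above the median of the dimmest set.

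The percentiles of the bright genes stayed near the top on 7 arrays, and those of Gja1 and Slc1a2 ranged more widely. A percentile near the top has little room to move, so this contrast does not compare their stability. Apoe read 158.0 on high gainer array 2 and 77.6 on low gainer array 3. Its rank from the brightest went from 26 to 121, but its percentile only from 99.8 to 99.1. Glul, Aldoc, Apoe and Clu lay between the 98.1st and the 99.9th percentile of probes with a value on each of the 7 arrays. On low gainer array 2, Glul, Apoe and Clu lay outside that range, with intensities of 5.05, 0.429 and 0.743 at the 81.5th, 24.3rd and 40.8th percentile. Aldoc read 7.76 there, at the 87.1st percentile, and Slc1a3 read 0.251, at the 8.83rd percentile. Slc1a2 and Gja1 had no value on that array. The percentile of Gja1 was 68.7, 69.1, 46.9 and 50.2 in high gainers (arrays 1 to 4), against 36.2, 40.3 and 68.8 in low gainers (arrays 1, 3 and 4). The split of Gja1 among the arrays was thus also present in ranks. For Slc1a2 the percentile ran from 15.2 to 39.0 in high gainers and from 20.2 to 42.6 in low gainers.

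**Figure D3:**
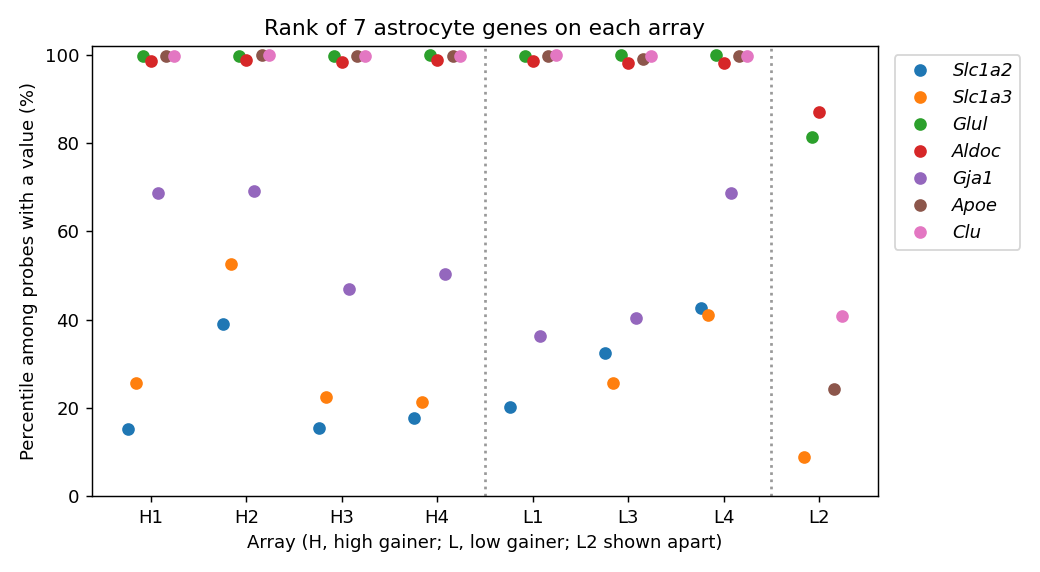
Percentile of each measured astrocyte gene among the probes with a value on that array, for high gainer arrays (H), low gainer arrays 1, 3 and 4 (L) and low gainer array 2 on the right. Glul, Aldoc, Apoe and Clu stay at or above the 98.1st percentile on 7 arrays, and Apoe is at the 24.3rd percentile on low gainer array 2.

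The 6 genes tested did not move as a block from array to array. Of 15 pairs of genes, 9 had an r above 0 over the 7 arrays, from -0.77 for Glul with Apoe to 0.53 for Slc1a2 with Glul. These values describe 7 arrays of 2 pools and carry no test. On low gainer array 3, Glul was 0.35 above and Apoe 0.88 below its mean over the 7 arrays, in log2 units. On high gainer array 2, all of the 6 genes except Glul (-0.06) were above their means, from 0.21 for Aldoc to 0.83 for Gja1. On high gainer array 3, all 6 were below, from -0.43 for Slc1a2 to -0.08 for Apoe.

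**Figure D4:**
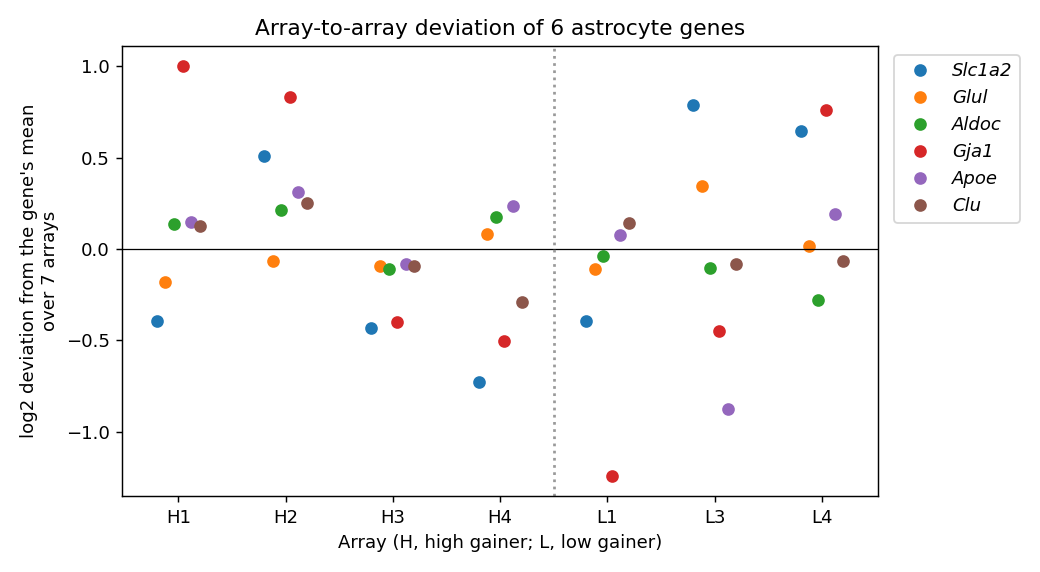
Log2 deviation of 6 astrocyte genes from their own means over 7 arrays, 1 point per gene and array, with high gainer arrays to the left of the dotted line. Gja1 runs from 1.00 on high gainer array 1 down to -1.24 on low gainer array 1, while Glul, Aldoc and Clu stay within 0.35 of their means.

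The named genes whose log2 intensity followed an astrocyte gene most closely over the 7 arrays were in none of the gene lists used here. For Gja1 they were Cyb5r4, Sptbn4 and Fbxw5, each at an r of 0.98. For Apoe they were Bzw2, Ttc1 and Actg1, from 0.98 to 0.99, and for Glul Pitpnb, Bbox1 and Sec61g, from 0.98 to 0.99. For Slc1a2 they were Paxx, Bap1 and Cmbl, from 0.98 to 0.99. Aldoc was closest to Ppp2r5d, Tcof1 and Ppp1r37, from 0.93 to 0.95, and Clu to Tex19.2, Dhx34 and Ddx52, from 0.92 to 0.94. With 7 arrays and 6332 named probes to choose from, values of this size describe the arrays and carry no test.

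Further genes enriched in astrocytes lay on both sides of 0. Of 48 listed, 34 were tested, 20 were above and 14 below 0 in high minus low gainers, 0 were called by limma, 5 had an unadjusted p under 0.05 (6.48% of all probes did) and the median log2 difference was 0.04. Sox9, a transcription factor that sets glial fate, read 0.658, 0.587, 0.664 and 0.452 in high gainers (arrays 1 to 4), against 0.366, 0.164 and 0.413 in low gainers (arrays 1, 3 and 4). All high gainer arrays lay above low gainer arrays 1, 3 and 4, as for 2.07% of all probes in that direction. Low gainer array 2, shown apart, read 1.76, above every high gainer array. The 0.164 of low gainer array 3 was below 0.186, the 10th percentile of all deposited intensities. The log2 difference of Sox9 was 0.97 with an interval from 0.29 to 1.65, which met the second rule (unadjusted p = 0.00847 by limma) and not the adjusted threshold (adjusted p = 0.750 by limma). By the methods' t-test at the same thresholds Sox9 was not taken.

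Id4, a negative regulator of differentiation, was at a high-to-low fold of 1.68 (adjusted p = 0.756 by limma). Mt3, a metal-binding metallothionein of brain, read 2.11, 4.09, 3.19 and 3.22 in high gainers (arrays 1 to 4), against 3.27, 6.77 and 6.35 in low gainers (arrays 1, 3 and 4). Dbi, the acyl-CoA binding protein that glia release as endozepines, read 2.16, 1.90, 1.82 and 2.17 in high gainers (arrays 1 to 4), against 1.77, 5.22 and 3.68 in low gainers (arrays 1, 3 and 4). Both genes were high on low gainer arrays 3 and 4 and near the high gainer level on low gainer array 1. Their log2 differences were -0.75 for Mt3 and -0.68 for Dbi, with an adjusted p of 0.750 and 0.752 by limma. Both passed once low gainer array 1 was left out, at an adjusted p of 0.0431 for Mt3 and 0.0259 for Dbi by limma. That fit kept only low gainer arrays 3 and 4 and called 171 of 11247 probes, against 3 of 11169 on 7 arrays. Mt3 and Dbi were the 2 genes called among 35 of the list tested there.

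Most tested genes of reactive astrocytes had values below 0 in high minus low gainers, with none called. Of 35 listed, 11 were tested, 10 were below 0 and 1 above 0, and 0 passed by limma, also at an unadjusted p under 0.05. The median log2 difference was -0.30, and 50.4% of all probes were below 0. Choroid plexus markers had a similar median of -0.31. Which cells carried the transcripts of the reactive list was not tested. Vim, which encodes vimentin, averaged 5.88 ± 0.735 (SD, n = 4) in high gainers and 5.95 ± 0.903 (SD, n = 3) in low gainers, with a log2 difference of 0.00 and an interval from -0.38 to 0.38. Cp, which encodes the copper carrier ceruloplasmin, was the 1 gene of the list without overlap, between 0.132 and 0.241 in high gainers, against 0.245 to 0.289 in low gainers. Such a separation, in that direction, held for 2.7% of all probes. The Cp values lay near 0.186, the 10th percentile of all deposited intensities, and the pools were parted only narrowly. The log2 difference of Cp was -0.64 (adjusted p = 0.756 by limma). Tnc, the matrix protein tenascin C, was at -0.41, S100a10 at -0.55 and the interferon-induced Ifitm3 at -0.38, with adjusted p of 0.784, 0.793 and 0.820 by limma. The sign of Vim turned, among other alternatives, without further normalization, with median centring and with cyclic loess, under which 11 of 11 genes were below 0. The median of the list was -0.12 without low gainer array 3. With all 8 arrays, 4 of 7 genes were below 0 and 3 above, with a median of -0.27. With missing values allowed, 12 of 17 genes were below 0 and the median was -0.17.

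Partners of the members gave no call either. In the glutamate and glutamine cycle, 4 of 7 tested genes were above 0, with a median of 0.05. Slc38a3, a glutamine exporter of astrocytes, lay between 0.278 and 0.687 in high gainers, against 0.184 to 0.399 in low gainers, a fold of 1.74 (adjusted p = 0.756 by limma). Among genes of glycogen, glycolysis and lactate, 6 of 12 were above 0. The high-to-low fold was 1.40 for Hk1 (hexokinase), 1.31 for Pfkp and 1.63 for Pfkm (phosphofructokinases) and 0.823 for Ldhb (lactate dehydrogenase), with adjusted p from 0.784 to 0.855 by limma. Aldoa, the widespread aldolase, averaged 4.08 ± 0.750 (SD, n = 4) in high gainers and 4.03 ± 2.01 (SD, n = 3) in low gainers.

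In lipoprotein and lipid transport, 5 of 8 tested genes were above 0, with a median of 0.06 and 0 called by limma. Apod, another glial apolipoprotein, averaged 13.5 ± 2.23 (SD, n = 4) in high gainers and 17.5 ± 3.47 (SD, n = 3) in low gainers, and the log2 interval ran from -0.76 to 0.03. The lipoprotein receptor Lrp1 was at a fold of 1.23 and the cholesterol exporter Abcg1 at 1.21, while Pltp, a phospholipid transfer protein, was at 1.23, each as high over low gainers. Among connexins and genes of water and potassium handling, 3 of 7 were above 0. Aqp1, a water channel of the choroid plexus, was at a fold of 0.625 (adjusted p = 0.750 by limma). Gjb1, connexin 32 of oligodendrocytes, was at 1.63, the potassium channel gene Kcnj16 at 0.754 and the water channel gene Aqp9 at 1.16, with adjusted p from 0.756 to 0.916 by limma.

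**Figure D5:**
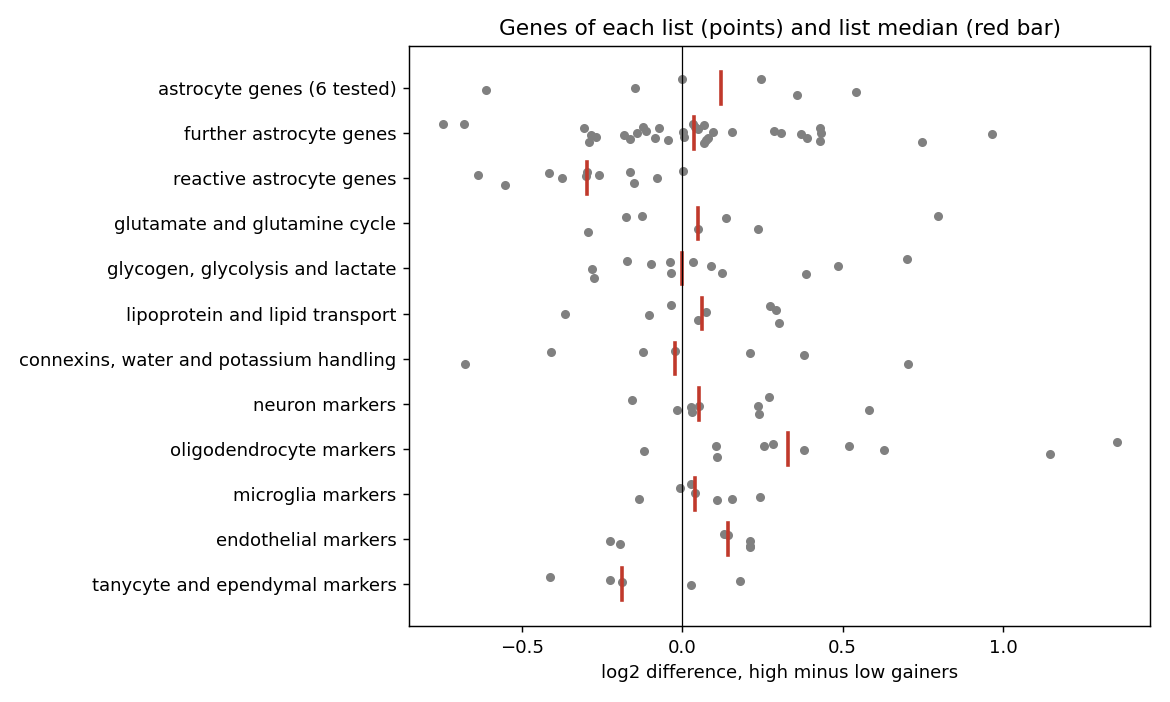
Log2 difference, high minus low gainer pool, for the tested genes of each list, 1 point per gene with random vertical scatter and a red bar at the list median. The median is 0.12 for the 6 astrocyte genes, -0.30 for the reactive genes and 0.33 for oligodendrocyte markers.

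Among the lists, the medians of pituitary, red cell and oligodendrocyte markers lay farthest from 0, a comparison that was not tested. That of oligodendrocyte markers, 0.33, was close in size to the -0.31 of choroid plexus markers and the -0.30 of reactive astrocyte genes. The median of the 6 astrocyte genes was 0.12. The summed intensity of the 6 astrocyte genes lay between 459.1 and 509.9 in high gainers, against 410.1 to 485.7 in low gainers. Such sums are set mostly by the brightest genes of a list. In high gainers Glul, Apoe and Clu averaged 147.6, 142.9 and 143.3, against 0.308 for Slc1a2 and 1.37 for Gja1. The sum of 3 of 12 pituitary markers (Gh, Cga and Prl) lay between 8.30 and 10.4 in high gainers, against 0.837 to 1.38 in low gainers. Gh, growth hormone, was at a fold of 11.2 (adjusted p = 1.45e-06 by limma). For 10 of 17 oligodendrocyte markers the sum ran from 61.5 to 96.9 in high gainers, against 20.6 to 64.5 in low gainers, with low gainer array 3 lowest. Of these 10 genes 9 were above 0, the median log2 difference was 0.33, and 0 were called by limma. Mag and Mbp, both myelin proteins, were at high-to-low folds of 2.56 and 2.22, with an adjusted p of 0.750 each by limma. For 3 of 7 red cell markers the sum ran from 8.94 to 14.8 in high gainers and from 18.4 to 37.2 in low gainers, and their median was -0.95. Their part in the values of the astrocyte genes was not tested.

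For the remaining cell types the medians were 0.05 over 9 of 16 neuron markers, 0.04 over 7 of 15 microglia markers, 0.14 over 7 of 12 endothelial markers, -0.19 over 5 of 13 tanycyte and ependymal markers and -0.31 over 6 of 9 choroid plexus markers, with 0 genes called by limma in each. Among them, Gad2 (GABA synthesis) was at a log2 difference of 0.58, Slc32a1 (the vesicular GABA transporter) at a fold of 1.21 and C1qa (complement) at 1.18 in high over low gainers. Ttr, the transthyretin of choroid plexus, was at 0.794, Rarres2 (chemerin) at 0.752 and Crym (crystallin mu of tanycytes) at 1.13. The endothelial genes Ly6c1 and Abcb1a were at 0.874 and 1.16, the microglial gene Tmem119 was at 1.08, and Hba-a1, an alpha globin, was at 0.455 with an adjusted p of 0.526 by limma. Hba-a1 was called once low gainer array 1 was left out, at a log2 difference of -1.43 (adjusted p = 0.00506 by limma). That fit called 171 of 11247 probes.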

How the data were processed

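The authors transcribed total RNA into digoxigenin-labelled cRNA and read 1-colour Applied Biosystems mouse arrays by chemiluminescence. The deposited intensities are linear and, by the study's methods, quantile-quantile normalized, yet the arrays did not share one distribution. Why cells are empty is not given in the sources used here.

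Groups came from the labels. Log2 intensities were quantile normalized again over 11169 probes measured on all of 7 arrays, and limma 3.58.1 (R 4.3.3; lmFit, eBayes with trend) compared the pools, with Benjamini-Hochberg adjustment over all probes at 0.05. Low gainer array 2 was left out, as earlier results of these data had set it apart. The members and lists were likewise chosen with earlier results known. The platform annotation gave 1 gene for 14411 of 33012 probes, several for 247 and none here for 18354, and 14402 matched RefSeq (GRCm38.p6) by gene ID. Lists used the brightest probe of a gene. Named were all members, up to 4 genes of smallest p per partner list, up to 2 per other cell type, family members, and the 3 genes most like each member. The peptide genes and Prl fall outside this rule and were looked up after values were seen. Fits were checked on simulated data. Alternatives covered arrays, normalization, brightness, missing values, pseudocount, variance prior, array weights, pairing and test. The small number of arrays sets the precision.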

Additional observations from a re-analysis of the deposited data

Results flagged for a closer look

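Within the 4 low gainer arrays, low gainer array 2 stood far below the other arrays for 3 astrocyte genes on the log2 scale. Its intensity was 5.05 for Glul, 0.743 for Clu and 0.429 for Apoe. The gap to the next array took 86.8%, 94.5% and 90.1% of the range of the 4 arrays. Of 11 groups of 4 arrays with complete values for a member, 3 were picked out in this way, and chance picks about 1 in 20. All 3 values lie on 1 array that had been set apart beforehand, so they are not independent of each other. Its values entered only the fit over all 8 arrays.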

How the results depend on the processing

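No member was called by limma in any alternative run. Of 98 member values under the alternatives, 89 kept their direction and 9 changed it, 8 of them those of Clu. The 89 include the runs without a variance trend and with the brightest 50% of probes. Those runs return the main log2 differences, so no direction could change there. With all 8 arrays, low gainer array 2 included, Glul was at 0.98 and Clu at 1.73, the median of the members was 1.36 over 4 genes, and 1 probe was called in all. The log2 difference of Clu was 0.046 without further normalization, 0.032 with median centring, 0.018 with cyclic loess and 0.0051 with missing values allowed, and lay between -0.086 and 0.098 when single arrays were left out. The cause of these changes was not tested, beyond the intensities of low gainer array 2 given above. The 3 calls over all probes became 1 among the brightest 50% of probes, of which fewer were tested, 0 by the methods' t-test after adjustment, and between 2 and 171 when single arrays were left out, the 171 without low gainer array 1. The median of the members lay between 0.0025 and 0.17 when single arrays were left out. Replicate numbers were not taken to pair the arrays. Arrays of the same number had deviations that correlated at -0.20, 0.13 and -0.14 for numbers 1, 3 and 4. Arrays of different number, 1 from each pool, correlated from -0.52 (high gainer array 3 with low gainer array 4) to 0.45 (high gainer array 3 with low gainer array 1). With the replicate block 9 probes were called, none of them a member, and Hba-a1 was among them at -1.24 (adjusted p = 0.0015 by limma). The comparison of Gfap with the other genes was not run, for want of a probe annotated to exactly 1 gene. The reactive list stayed below 0 in its median under every alternative run, from -0.38 to -0.12, the alternatives of the lists other than all 8 arrays and all probes of a gene having been added after the data were seen.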
